A study of Mus musculus with 6 samples.

Results

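Interferon-stimulated genes are the genes that cells switch on when an interferon binds its receptor. They were taken as a list of 42 human symbols, and the 40 with a row among the 16191 rows of the deposited FPKM table were described (FPKM, fragments scaled to gene length and to the mapped fragments of the library). IFI27 and IFITM1 were not analysed here. According to the labels and the methods, C57BL/6J mice of 6 to 8 weeks received a subretinal injection of AAV, and the RPE-choroid complex, the retinal pigment epithelium with the vessel layer beneath it, was sequenced 4 weeks later. The vector of the 3 AAV-PDGF-D libraries carried the coding sequence of human PDGFD and that of the 3 AAV-GFP libraries carried GFP, both placed behind the human VMD2 promoter to limit expression to the pigment epithelium. Nothing in the sources states whether the libraries of a group came from separate mice, so the p-values cover the spread among these libraries, which may be technical.

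The rows of the table are human genes, although the labels give mouse tissue. Not given in the sources used here is the build or annotation behind those human rows. The human PDGFD row did not separate the groups as the labels would have it, at 5.96 ± 0.627 FPKM in the libraries labelled AAV-PDGF-D and 6.76 ± 0.178 FPKM in those labelled AAV-GFP (SD, n = 3 each). All values below are therefore values of the libraries so labelled, and AAV-PDGF-D and AAV-GFP stand for those labels throughout. Of the pigment epithelium markers, KRT8 averaged 1277 FPKM and PMEL 51.5 FPKM over the 6 libraries, while RPE65, the isomerase of the visual cycle, averaged 0.869 FPKM. The endothelial markers PECAM1 and CDH5 averaged 0.167 and 0.0815 FPKM, but KDR, on the same list, averaged 9.06 FPKM. PTPRC, the common leukocyte antigen CD45, averaged 0.0315 FPKM, while CD68, a macrophage and monocyte marker, averaged 19.6 FPKM. HBA1, HBA2 and HBB, the hemoglobin chains, lay between 65.4 and 219 FPKM in 2 libraries, AAV-PDGF-D replicate 3 and AAV-GFP replicate 1, and at 0.319 FPKM or less in the other 4. In bulk RNA of this kind, fewer cells of a type and less RNA per cell cannot be told apart.

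Type I interferons signal through the receptor chains IFNAR1 and IFNAR2 and the kinases JAK1 and TYK2 to a complex that holds STAT2 and IRF9. The complex enters the nucleus and switches on genes that carry an interferon-stimulated response element. Interferon gamma has a receptor of its own, IFNGR1 with IFNGR2, and IRF1 as an early target. The products of the induced genes sense viral RNA, block translation or budding, degrade RNA, and deplete nucleotides. Many of them also hold the pathway ready in unstimulated cells, so that a low basal level of such genes is usual in epithelium.

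The 40 genes spanned several orders of magnitude. IFITM3 was the most abundant, with a mean of 229 FPKM over the 6 libraries, followed by TRIM22 at 86.2, GBP1 at 63.2 and IFITM2 at 58.6 FPKM. At the other end, 14 genes had a mean below 1 FPKM, and none of these exceeded 1.23 FPKM in any library. These were DHX58, IFIT1, IFIT2, OAS1, OAS2, OASL, MX2, BST2, RSAD2, CMPK2, ISG20, IFI44, IFI44L and XAF1, among them several of the genes most often used as readouts of type I interferon. OAS1, OAS2, OASL, MX2 and XAF1 were listed at 0 in at least 1 library. The median over the 40 genes was 3.61 FPKM, against 6.38 FPKM over all rows.

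**Figure D1:**
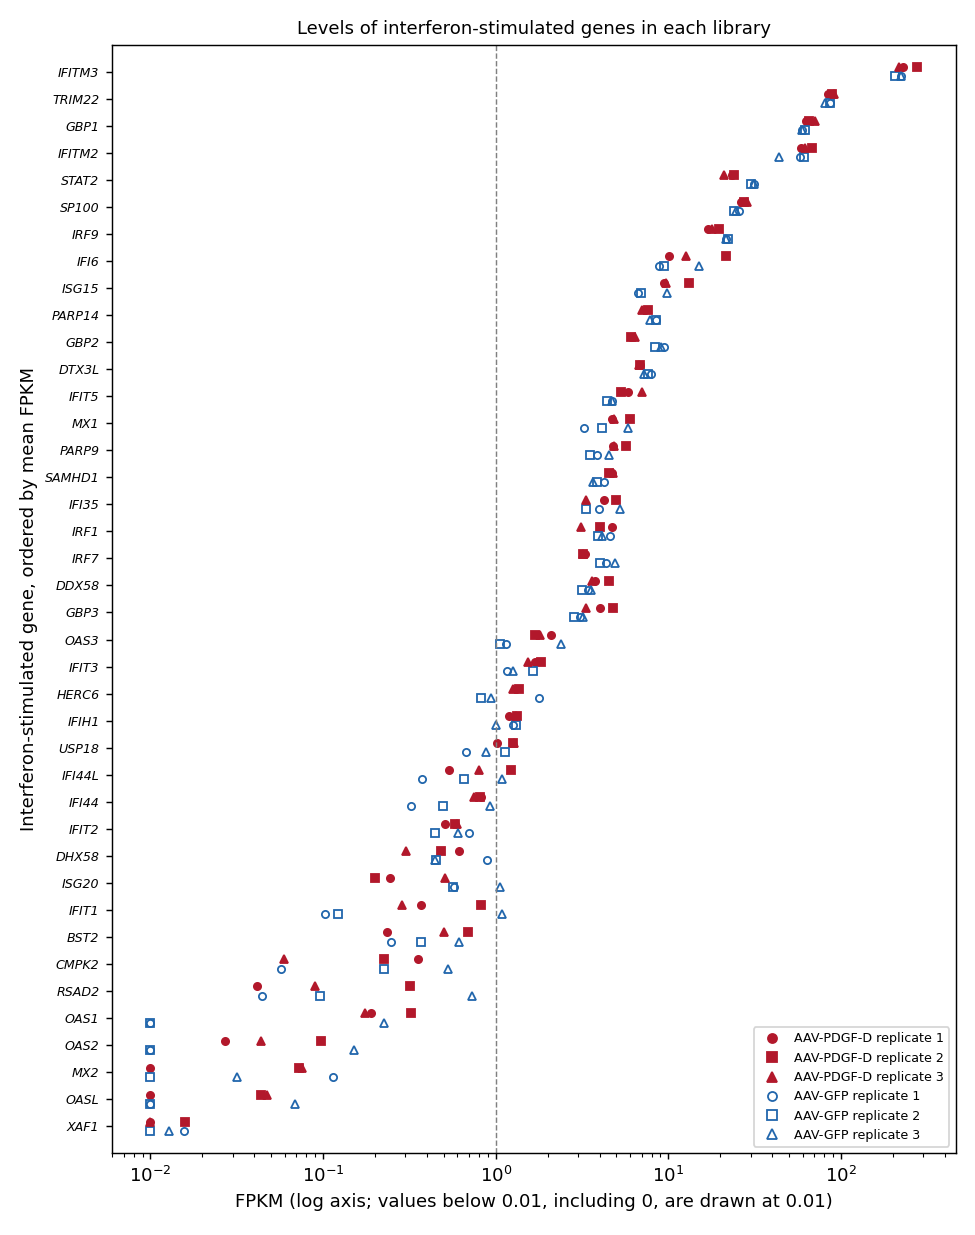
FPKM of the 40 interferon-stimulated genes in each library on a log axis, ordered by their mean, with filled red symbols for AAV-PDGF-D and open blue symbols for AAV-GFP, the dashed line at 1 FPKM and values of 0 at the left edge. The groups lie close together for most genes, and libraries of the same group lie far apart for RSAD2, CMPK2 and IFIT1, more so in AAV-GFP.

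AAV-PDGF-D was compared with AAV-GFP to ask whether these genes differed between the labels. None of them was called. A call needed a limma adjusted p no higher than 0.1, at least a 1.5-fold change on the log2(FPKM + 0.1) scale, and 1 FPKM or more on average. Of the 40 genes, 36 passed the filter on low values and 26 reached the mean needed for a call. Among those 26, 0 were called higher, where 2.01% of all rows were, and 0 were called lower, where 1.75% of all rows were. Against shares that small, a count of 0 among 26 genes is near the background and no result about them. At an unadjusted p under 0.05, 7 of the 26 genes were higher and 5 lower, which is 26.9% and 19.2%, against 24.5% and 14.2% of all rows.

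The intervals show how closely these differences were bounded. The 95% interval of the log2 fold change lay wholly inside 1.5-fold in either direction for 14 of the 26 genes, STAT2, IRF9, TRIM22 and IFITM3 among them, which is 53.8%, against 80.4% of all rows. It reached past 1.5-fold for the other 12, so a change of that size was not detectable or not bounded for OAS3, MX1, IFI6, USP18, HERC6, IFIT3, ISG15, GBP2, GBP3, IFIT5, PARP9 and IRF7. Without regard to fold size, the adjusted p was at most 0.1 for 4 genes that were lower in AAV-PDGF-D (STAT2, IRF7, IRF9 and GBP2) and for 5 that were higher (IFIT5, GBP3, ISG15, PARP9 and SAMHD1). These are 15.4% and 19.2% of the 26 genes, against 11.7% lower and 20.9% higher among all rows, shares close to the background. The 4 lower genes again had an adjusted p of at most 0.1 when any 1 library was left out, while the number of higher genes was 0 without AAV-GFP replicate 2, 1 without AAV-PDGF-D replicate 2 or replicate 3, and 2 without AAV-GFP replicate 1. The median log2 fold change of the 26 genes was 0.18, against 0.04 for all rows that could be called. Of the 26, 19 had a log2 fold change above 0, where 56.8% of all rows did, and 7 had one below 0, where 43.2% of all rows did. IFIH1, TRIM22 and IFI35 were among the 19 and turned below 0 with scaling by respiratory chain genes. The median moved to 0.14 with median-of-ratios scaling and 0.05 with scaling by respiratory chain genes, which moved that of all rows to -0.01 and -0.09.

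**Figure D2:**
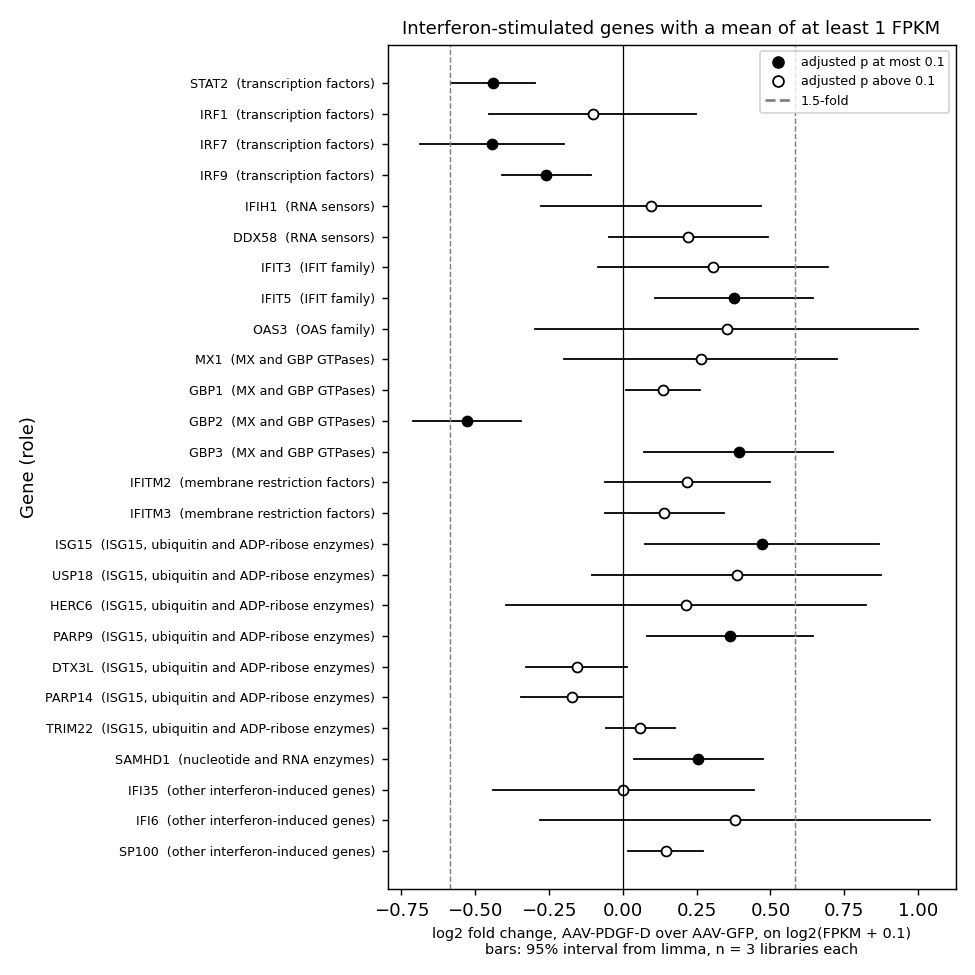
Log2 fold change of AAV-PDGF-D over AAV-GFP on the log2(FPKM + 0.1) scale for the 26 interferon-stimulated genes with a mean of at least 1 FPKM, with the 95% interval from limma (n = 3 libraries each), filled points for an adjusted p of at most 0.1 and dashed lines at 1.5-fold. The 4 transcription factor genes lie at or below -0.10, and no point lies outside the dashed lines.

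The transcription factors that carry the interferon signal all had a log2 fold change below 0, and 3 of the 4 passed the adjusted p. Among all rows, 43.2% lay below 0 and 11.7% passed the adjusted p with lower values. The 4 genes were not tested as a set. STAT2, the subunit of the type I interferon complex that brings the activation domain, was at 23.4, 23.9 and 21.1 FPKM in AAV-PDGF-D replicates 1 to 3, against 31.4, 30.0 and 31.2 FPKM in AAV-GFP replicates 1 to 3. All AAV-PDGF-D libraries lay below all AAV-GFP libraries, and the log2 fold change was -0.44 (standard error, SE, 0.06, limma adjusted p = 0.00389). IRF9, its DNA-binding partner, was at 17.0, 19.7 and 17.8 FPKM in AAV-PDGF-D, against 21.6, 22.1 and 21.6 FPKM in AAV-GFP. The groups did not overlap here either, with a log2 fold change of -0.26 (SE 0.07, limma adjusted p = 0.0283). IRF7, which amplifies the production of interferon alpha, was at 3.28, 3.20 and 3.19 FPKM in AAV-PDGF-D, against 4.35, 4.01 and 4.93 FPKM in AAV-GFP, again without overlap. The IRF7 log2 fold change was -0.44 (SE 0.11, limma adjusted p = 0.0239). IRF1, the early factor downstream of interferon gamma, was at 3.96 ± 0.802 FPKM in AAV-PDGF-D and 4.21 ± 0.349 FPKM in AAV-GFP (SD, n = 3 each) with overlapping libraries. The IRF1 log2 fold change of -0.10 turned to 0.05 without AAV-PDGF-D replicate 3 and to 0.12 without both libraries with hemoglobin. None of the 4 reached 1.5-fold, and without both libraries with hemoglobin the adjusted p held for STAT2 but not for IRF7 and IRF9.

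**Figure D3:**
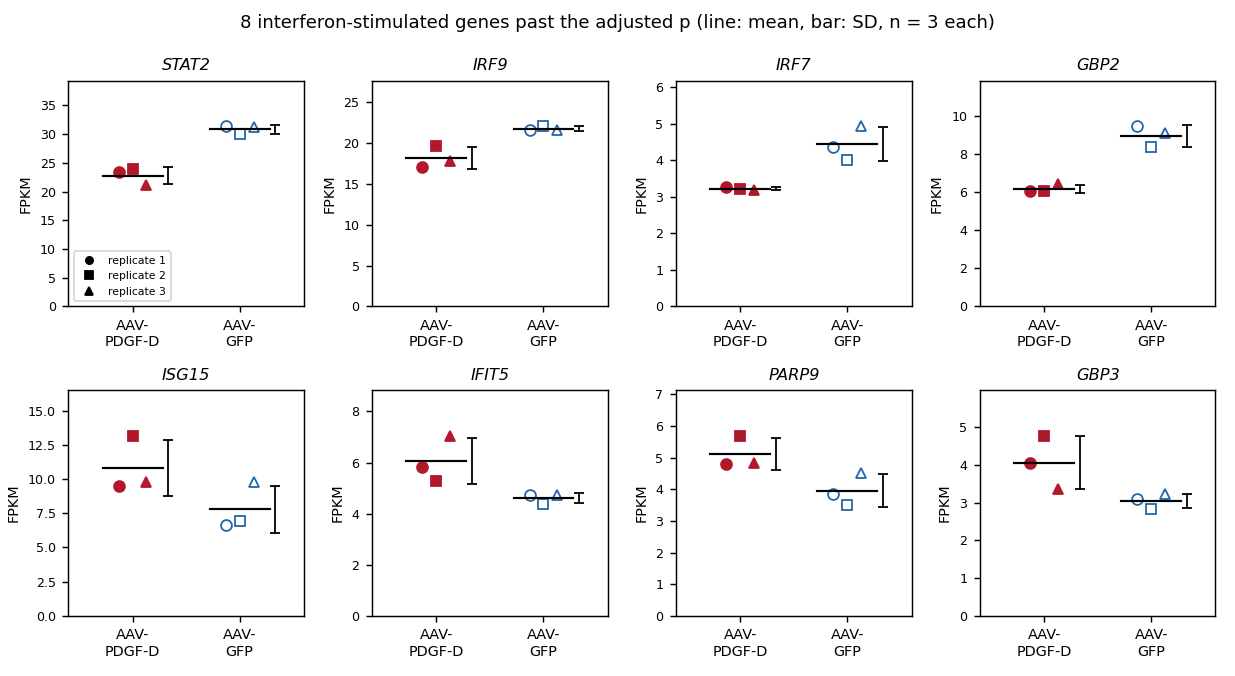
FPKM of 8 of the 9 interferon-stimulated genes with an adjusted p of at most 0.1, with AAV-PDGF-D in red on the left and AAV-GFP in blue on the right of each panel, a line for the mean and a bar for the SD (n = 3 each). STAT2, IRF9, IRF7 and GBP2 lie lower in AAV-PDGF-D, IFIT5, PARP9 and GBP3 lie higher, and the ISG15 libraries overlap between groups.

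Upstream of these factors, the genes for interferons themselves were close to 0. Rows of 10 interferon alpha genes were read, and the highest value of any of them in any library was 0.174 FPKM. IFNE, an interferon of epithelia, had a mean of 0.632 FPKM and was at 0.364, 0.876 and 0.842 FPKM in AAV-PDGF-D, against 0.392, 0.767 and 0.552 FPKM in AAV-GFP, with overlapping libraries. IFNB1 and the lambda interferons were not analysed here. The receptors were well above that level, with IFNAR1 at a mean of 18.2, IFNAR2 at 18.1, IFNGR1 at 15.8 and IFNGR2 at 28.6 FPKM and JAK1 at 36.1 FPKM. The receptor chain for lambda interferon, IFNLR1, averaged 0.769 FPKM. None of the 8 receptor and proximal signalling genes that could be called was called. Among all rows 2.01% were called higher and 1.75% lower, so that count is near the background. Past the adjusted p alone, 2 of the 8 were higher and 0 lower, against 20.9% higher and 11.7% lower among all rows. TYK2, the kinase bound to IFNAR1, was at 21.9 ± 1.55 FPKM in AAV-PDGF-D and 17.4 ± 1.03 FPKM in AAV-GFP (SD, n = 3 each). The TYK2 log2 fold change was 0.33 (SE 0.07, limma adjusted p = 0.0182), short of 1.5-fold.

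The cytoplasmic RNA sensors were present at low levels. DDX58, which encodes the RNA helicase RIG-I, was at 3.76, 4.53 and 3.62 FPKM in AAV-PDGF-D, against 3.42, 3.15 and 3.56 FPKM in AAV-GFP. The DDX58 libraries did not overlap, but the gap between the groups was narrow, and the log2 fold change of 0.22 had an adjusted p of 0.222 by limma. IFIH1, which encodes MDA5, was at 1.2, 1.32 and 1.31 FPKM in AAV-PDGF-D and 1.26, 1.32 and 1.0 FPKM in AAV-GFP, with overlap. DHX58, which encodes the regulator LGP2, averaged 0.532 FPKM and could not be called.

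The IFIT proteins bind foreign RNA and hold back its translation. IFIT5 was the most abundant of them, at 5.83, 5.29 and 7.06 FPKM in AAV-PDGF-D, against 4.72, 4.39 and 4.75 FPKM in AAV-GFP. All AAV-PDGF-D libraries were above, and the IFIT5 log2 fold change was 0.38 (SE 0.12, limma adjusted p = 0.056). IFIT3 was at 1.70, 1.83 and 1.54 FPKM in AAV-PDGF-D, against 1.16, 1.65 and 1.27 FPKM in AAV-GFP, with a narrow overlap and a log2 fold change of 0.31 (adjusted p = 0.238 from limma). IFIT2 averaged 0.571 FPKM. IFIT1, described because of its spread after its values were seen, was at 0.370, 0.818 and 0.287 FPKM in AAV-PDGF-D and 0.102, 0.122 and 1.09 FPKM in AAV-GFP. The highest AAV-GFP library was 10.6 times the lowest for IFIT1, so the difference between the groups lay within that spread.

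The OAS enzymes make the oligoadenylates that activate RNase L. Of the OAS genes, OAS3 could be called, at 2.08, 1.70 and 1.80 FPKM in AAV-PDGF-D, against 1.14, 1.06 and 2.4 FPKM in AAV-GFP. AAV-GFP replicate 3 was above every AAV-PDGF-D library for OAS3, while the other AAV-GFP libraries were below them all. The OAS3 log2 fold change was 0.35 (SE 0.28, limma adjusted p = 0.418), and without AAV-GFP replicate 3 OAS3 was called higher, with 0.71 (adjusted p = 0.0424 from limma). OAS1 was at 0.190, 0.322 and 0.174 FPKM in AAV-PDGF-D, and was listed at 0 in AAV-GFP replicates 1 and 2 and at 0.224 FPKM in AAV-GFP replicate 3. OAS2 and OASL averaged 0.0532 and 0.0267 FPKM. Reads of closely related genes, such as the OAS, IFIT, GBP and IFITM families, could be split between copies in ways the table does not show.

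Among the interferon-induced GTPases, which restrict viruses (MX) or attack the compartments of intracellular pathogens (GBP), the GBP genes went both ways. GBP2 was at 6.07, 6.07 and 6.43 FPKM in AAV-PDGF-D, against 9.48, 8.36 and 9.09 FPKM in AAV-GFP. This was the largest difference among the 26 genes, with no overlap and a log2 fold change of -0.53 (SE 0.08, limma adjusted p = 0.00473). GBP2 was just inside the fold threshold of 0.585 on the log2 scale and was called lower with respiratory chain scaling, at -0.66. GBP3 was at 4.04, 4.78 and 3.36 FPKM in AAV-PDGF-D, against 3.08, 2.83 and 3.21 FPKM in AAV-GFP. It lay above 0 where GBP2 lay below, again without overlap between libraries, with a log2 fold change of 0.39 (SE 0.14, limma adjusted p = 0.085). GBP1, the most abundant of the GTPases, was at 62.4, 65.5 and 70.6 FPKM in AAV-PDGF-D, against 59.2, 61.9 and 59.5 FPKM in AAV-GFP. The GBP1 libraries did not overlap, and the log2 fold change was 0.14 with an adjusted p of 0.12 by limma. MX1 was at 4.70, 6.02 and 4.85 FPKM in AAV-PDGF-D and 3.25, 4.12 and 5.84 FPKM in AAV-GFP, and MX2 averaged 0.0492 FPKM. For MX1 the libraries overlapped through AAV-GFP replicate 3.

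The membrane proteins that hold virions at the cell surface or in endosomes did not separate the groups. IFITM3 was at 228, 277 and 217 FPKM in AAV-PDGF-D, against 223, 205 and 223 FPKM in AAV-GFP. IFITM2 was at 58.3, 67.8 and 62.1 FPKM in AAV-PDGF-D, against 58.3, 61.3 and 43.6 FPKM in AAV-GFP. The libraries overlapped in both cases, and the log2 fold changes were 0.14 for IFITM3 and 0.22 for IFITM2 (adjusted p = 0.297 and 0.24 from limma). BST2, which encodes tetherin, averaged 0.444 FPKM.

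ISG15 is a ubiquitin-like protein, USP18 removes it from its targets and also restrains the interferon receptor, and HERC6 is a ligase of the family that attaches ISG15 in mouse. ISG15 was at 9.46, 13.2 and 9.76 FPKM in AAV-PDGF-D, against 6.65, 6.93 and 9.78 FPKM in AAV-GFP. AAV-GFP replicate 3 overlapped with the AAV-PDGF-D libraries, and the ISG15 log2 fold change was 0.47 (SE 0.17, limma adjusted p = 0.0915). Without AAV-GFP replicate 3, ISG15 was called higher, with 0.65 (adjusted p = 0.0388 from limma). USP18 was at 1.18 ± 0.146 FPKM in AAV-PDGF-D and 0.892 ± 0.226 FPKM in AAV-GFP, and HERC6 was at 1.31 ± 0.0454 FPKM in AAV-PDGF-D and 1.18 ± 0.529 FPKM in AAV-GFP (SD, n = 3 each). Both overlapped between groups. TRIM22, a ubiquitin ligase that restricts viral transcription and has no mouse counterpart, was at 83.8, 89.1 and 91.0 FPKM in AAV-PDGF-D, against 86.4, 86.2 and 80.6 FPKM in AAV-GFP. The TRIM22 log2 fold change of 0.06 had a 95% interval of -0.06 to 0.18.

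PARP9 and DTX3L, which form an ADP-ribosyltransferase and ubiquitin ligase complex, lay on opposite sides of 0. PARP9 was at 4.79, 5.70 and 4.83 FPKM in AAV-PDGF-D, against 3.86, 3.50 and 4.51 FPKM in AAV-GFP, with no overlap and a log2 fold change of 0.36 (SE 0.12, limma adjusted p = 0.0733). DTX3L was at 6.84, 6.84 and 6.77 FPKM in AAV-PDGF-D, against 7.98, 7.63 and 7.23 FPKM in AAV-GFP, also with no overlap, and a log2 fold change of -0.16 (SE 0.07, limma adjusted p = 0.174). The ratio of PARP9 to DTX3L was 0.701, 0.834 and 0.714 in AAV-PDGF-D, against 0.484, 0.459 and 0.624 in AAV-GFP. With PARP9 above and DTX3L below in every AAV-PDGF-D library, the ratio could not overlap, so it adds nothing to the values of the genes. It was computed after the values were seen and was not tested. PARP14, a mono-ADP-ribosyltransferase, was at 7.33 ± 0.292 FPKM in AAV-PDGF-D and 8.27 ± 0.343 FPKM in AAV-GFP (SD, n = 3 each), a log2 fold change of -0.17 (adjusted p = 0.139 from limma).

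Of the enzymes that act on nucleotides and RNA, SAMHD1 was above 1 FPKM. This dNTP triphosphohydrolase, which starves reverse transcription, was at 4.70, 4.52 and 4.79 FPKM in AAV-PDGF-D, against 4.22, 3.84 and 3.64 FPKM in AAV-GFP. The SAMHD1 libraries did not overlap, with a log2 fold change of 0.26 (SE 0.10, limma adjusted p = 0.095). ISG20, an exonuclease of single-stranded RNA, was at 0.243, 0.199 and 0.510 FPKM in AAV-PDGF-D, against 0.572, 0.569 and 1.06 FPKM in AAV-GFP. All AAV-PDGF-D libraries of ISG20 were below, with a log2 fold change of -1.02 (SE 0.35, limma adjusted p = 0.0784), but its mean of 0.525 FPKM was below that needed for a call. With TPM scaling, which lifts all values, ISG20 reached that mean and was called lower, at -1.15. RSAD2, which encodes the radical enzyme viperin, and its neighbour in function CMPK2 averaged 0.219 and 0.242 FPKM. Their highest library in AAV-GFP was 16.4 times the lowest for RSAD2 and 9.28 times for CMPK2. In AAV-PDGF-D the highest was 7.72 times the lowest for RSAD2 and 5.97 times for CMPK2.

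The remaining interferon-induced genes overlapped between groups with 1 exception. SP100, a component of nuclear bodies that restrict DNA viruses, was at 26.4, 27.6 and 28.6 FPKM in AAV-PDGF-D, against 25.8, 24.0 and 24.7 FPKM in AAV-GFP, without overlap. The SP100 log2 fold change was 0.15, and its adjusted p of 0.101 by limma just missed the limit. IFI6, a mitochondrial and endoplasmic reticulum protein, was at 10.1, 21.7 and 12.6 FPKM in AAV-PDGF-D, against 8.85, 9.39 and 15.0 FPKM in AAV-GFP. A single library was high in each group for IFI6, AAV-PDGF-D replicate 2 and AAV-GFP replicate 3, and the 95% interval of its log2 fold change ran from -0.28 to 1.04. IFI35 was at 4.19 ± 0.825 FPKM in AAV-PDGF-D and 4.20 ± 0.976 FPKM in AAV-GFP (SD, n = 3 each). IFI44, IFI44L and XAF1 averaged 0.687, 0.780 and 0.00736 FPKM.

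The libraries that were high for IFI6 were often the highest of their group for these genes. Among the 14 genes with a mean below 1 FPKM, AAV-GFP replicate 3 was the highest AAV-GFP library for 10, while AAV-GFP replicate 1 was so for 4 and AAV-GFP replicate 2 for 0. Among the 26 with a higher mean, AAV-GFP replicate 3 was the highest AAV-GFP library for 10, or 38.5%. AAV-PDGF-D replicate 2 was the highest AAV-PDGF-D library for 7 of those 14 and for 15 of the 26 with a mean of at least 1 FPKM. Over all rows that averaged 1 FPKM or more, AAV-PDGF-D replicate 2 was the highest of its group in 35.9% and AAV-GFP replicate 3 in 31.6%. Over rows below that mean the shares were 36.1% and 33.8%. This count was made after the values were seen and was not tested, and the genes are not independent replicates. Neither library is 1 of the 2 with hemoglobin. For the 26 genes, the median SD of log2(FPKM + 0.1) between libraries was 0.114 in AAV-PDGF-D and 0.11 in AAV-GFP, against 0.0908 in AAV-PDGF-D and 0.0875 in AAV-GFP over all rows that could be called. Of the 26, 7 genes had all AAV-PDGF-D libraries above all AAV-GFP libraries and 6 had them all below, which is 26.9% and 23.1%, against 27.3% and 16.4% of all rows.

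**Figure D4:**
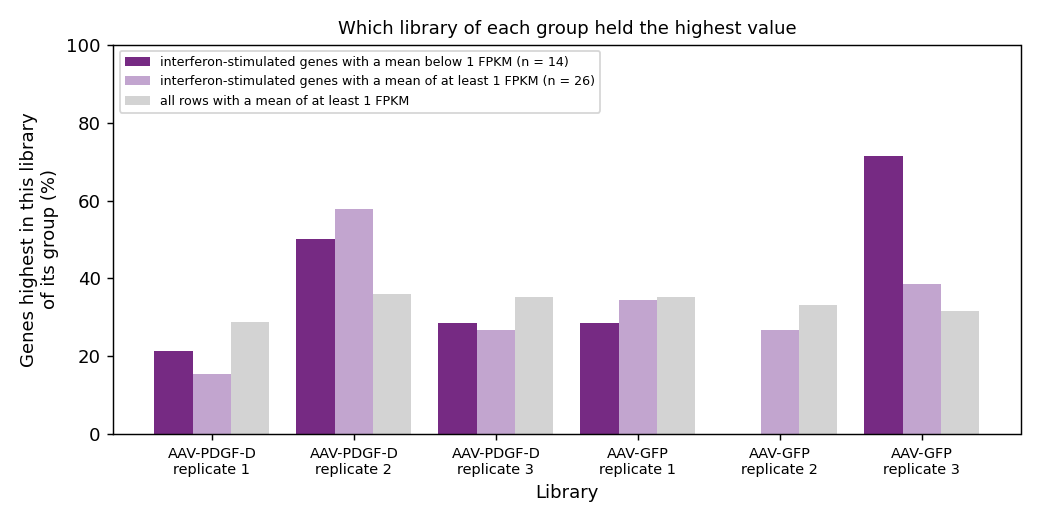
Share of genes for which each library held the highest value of its own group, in percent, for the 14 interferon-stimulated genes with a mean below 1 FPKM, the 26 that averaged 1 FPKM or more, and all rows from that mean upwards. AAV-GFP replicate 3 holds 71.4% of the low genes, and AAV-PDGF-D replicate 2 holds 57.7% of the 26 more abundant ones.

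Wider lists of the same pathway gave few calls. Among 34 other interferon-stimulated genes that could be called, 2 were called higher and 0 lower, which is 5.88% higher, against 2.01% higher and 1.75% lower among all rows. SP140, a nuclear body protein related to SP100, was at 1.32, 2.55 and 2.18 FPKM in AAV-PDGF-D, against 0.469, 1.05 and 0.552 FPKM in AAV-GFP. All AAV-PDGF-D libraries were above, with a log2 fold change of 1.44 (SE 0.32, limma adjusted p = 0.0181), but without both libraries with hemoglobin the SP140 call was lost, at 1.17 (adjusted p = 0.144 from limma). WARS1, the tryptophanyl-tRNA synthetase, listed under its older symbol WARS, was at 36.0, 35.1 and 38.7 FPKM in AAV-PDGF-D, against 25.8, 24.4 and 22.8 FPKM in AAV-GFP. The WARS1 groups were well apart, and the log2 fold change of 0.59 (SE 0.06, limma adjusted p = 0.0017) lay at the threshold. The WARS call was lost with a pseudocount of 1 (0.57), with each other scaling (0.45 to 0.56), and without AAV-GFP replicate 3 (0.54) or AAV-PDGF-D replicate 3 (0.55). Over the 34 genes, 6 were higher and 4 lower past the adjusted p alone, against 20.9% higher and 11.7% lower among all rows. Their median log2 fold change was 0.001, with 18 above 0 and 16 below, against 56.8% and 43.2% of all rows. The most abundant of this list, LGALS3BP and LY6E, averaged 321 and 82.1 FPKM. LGALS3BP was at 302 ± 3.49 FPKM in AAV-PDGF-D and 340 ± 3.29 FPKM in AAV-GFP (SD, n = 3 each), without overlap. Its log2 fold change was -0.17 (limma adjusted p = 0.015). The kinase EIF2AK2, which stops translation on viral RNA, was at 12.1 ± 0.563 FPKM in AAV-PDGF-D and 9.995 ± 0.247 FPKM in AAV-GFP (SD, n = 3 each), a log2 fold change of 0.27.

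None of 14 callable genes for nucleic acid sensing and none of 12 for negative regulation was called. Among all rows 2.01% were called higher and 1.75% lower, so both counts are near the background. Past the adjusted p alone, 3 of the 14 were higher, TLR4 among them, and 1 lower. Of the 12, 1 was higher and 1 lower. Among all rows 20.9% were higher and 11.7% lower by that measure. The most abundant genes of the 2 lists were IRF3 and MAVS, at means of 19.8 and 19.1 FPKM, and PTPN1 and PTPN11, at 82.8 and 65.7 FPKM. TLR4 was counted on the nucleic acid sensing list, although it is the lipopolysaccharide receptor and not a sensor of nucleic acid. It lay just inside the threshold, at 4.17 ± 0.159 FPKM in AAV-PDGF-D and 2.76 ± 0.131 FPKM in AAV-GFP (SD, n = 3 each), with a log2 fold change of 0.58. TLR4 was called higher with a pseudocount of 0.01 (0.60), and when AAV-PDGF-D replicate 1 or 2 or AAV-GFP replicate 2 or 3 was left out (0.59 to 0.60). PTPN6, the phosphatase SHP-1, lay just inside it on the other side, with -0.54, and was called lower with median-of-ratios scaling (-0.59), with respiratory chain scaling (-0.67) and without AAV-GFP replicate 3 (-0.60). Of 14 class I presentation genes that could be called, which interferon gamma also induces, 0 were called, while 6 passed the adjusted p with lower values and 1 with higher values, beside 11.7% lower and 20.9% higher among all rows. The log2 fold change was below 0 for 11 of the 14, where 43.2% of all rows were below 0. The median of the 14 was -0.17, against 0.04 for all rows that could be called. B2M, the light chain of class I molecules, averaged 341 FPKM in AAV-PDGF-D and 339 FPKM in AAV-GFP. Given as the most abundant of the list, B2M was 1 of its 3 genes above 0 and not typical of it.

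Markers of immune cells, which carry interferon-stimulated transcripts of their own, were mostly low. Of 37 leukocyte markers, 26 had a row, 3 averaged at least 1 FPKM (CD68, CSF1R and TCF4) and 16 averaged below 0.1 FPKM. The summed level of the macrophage and monocyte markers ran from 21.5 to 23.6 FPKM in AAV-PDGF-D and from 19 to 21 FPKM in AAV-GFP, nearly all of it from CD68, and that of the plasmacytoid dendritic cell markers from 7.63 to 14.3 FPKM in AAV-PDGF-D and from 7.58 to 10.1 FPKM in AAV-GFP, nearly all from TCF4. Of the 2 macrophage and monocyte markers that could be called, 1 was called lower, where 1.75% of all rows were. This was CSF1R, the receptor for macrophage growth factor, at 0.697 ± 0.11 FPKM in AAV-PDGF-D and 1.46 ± 0.369 FPKM in AAV-GFP (SD, n = 3 each). Its mean of 1.08 FPKM was just past that needed for a call. CD68 went the other way without overlap, at 20.9 ± 0.646 FPKM in AAV-PDGF-D and 18.2 ± 0.979 FPKM in AAV-GFP (limma adjusted p = 0.0531). Of 15 pigment epithelium markers that could be called, 0 were called higher and 3 lower (PMEL, TYRP1 and TRPM1), which is 20% lower, against 1.75% of all rows. PMEL, a protein of melanosomes, was at 36.7 ± 1.13 FPKM in AAV-PDGF-D and 66.3 ± 11.0 FPKM in AAV-GFP, while KRT8, a keratin, was at 1363 ± 15.8 FPKM in AAV-PDGF-D and 1191 ± 46.0 FPKM in AAV-GFP (SD, n = 3 each). The log2 fold change was -0.84 for PMEL, -0.80 for TYRP1, -0.61 for TRPM1 and 0.19 for KRT8. Fibroblast markers summed to between 192 and 210 FPKM in AAV-PDGF-D and between 214 and 257 FPKM in AAV-GFP. Most of that sum came from COL1A1, whose libraries overlapped. Of the 6 fibroblast markers, 5 had a log2 fold change below 0 and 1 above 0, where 43.2% and 56.8% of all rows did. COL1A2, COL3A1, DCN and LUM, 4 of the 6, were lower without overlap, against 16.4% of all rows. These 4 also passed the adjusted p, against 11.7% lower among all rows. The marker above 0 was PDGFRA, with means of 16.9 FPKM in AAV-PDGF-D and 14.6 FPKM in AAV-GFP, without overlap. Endothelial markers summed to between 8.51 and 9.16 FPKM in AAV-PDGF-D and between 10.2 and 10.5 FPKM in AAV-GFP, nearly all from KDR. The other endothelial markers averaged 0.182 FPKM or less, with VWF and TEK higher in AAV-PDGF-D and PECAM1, CDH5 and ERG lower. The part of these cell markers in the differences above was not tested.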

How the data were processed

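The authors deposited 1 table with FPKM for each gene and library. Per the labels and methods, STAR 2.4.2a, the mouse build mm10 and RSEM 1.2.29 were used, but 15504 rows carry human Ensembl IDs while 687 carry a label for unannotated human genes, so that description cannot account for the rows. FPKM hold no read counts, and with no counts or gene lengths the depth is unknown, so no count model was run and no counting interval is given. The methods' thresholds (adjusted p of at most 0.1, fold of at least 1.5, mean of at least 1 FPKM) were applied to limma 3.58.1 (R 4.3.3, variance trend) on log2(FPKM + 0.1) instead of DESeq2, which needs counts, over 13821 rows averaging 0.1 FPKM or more, with Benjamini-Hochberg adjustment. Of these rows, 11444 could be called. On this scale low genes show too small a fold change. Exact permutation of 3 against 3 libraries cannot go below p = 0.1. The script was tested on simulated data.

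Groups and replicate numbers came from the labels. The genes and the pathway and marker lists were chosen with earlier results of these data known, so no list was tested as a set. Every listed gene with a row is named. Values per library are given for called genes, the 2 most abundant of each role and the 4 largest differences each way without overlap, at a mean of at least 1 FPKM. Of each pathway list, up to 4 called genes and the 2 most abundant are given, except for genes that are not reported here. IFIT1, MX1, DTX3L, TYK2, TLR4, PTPN6, EIF2AK2, RSAD2, CMPK2 and IFNE were given values after these were seen. Alternatives were 2 other pseudocounts, 2 filters, 3 scalings, no variance trend, 3 changes of threshold, a replicate block and each library left out in turn. A run without both hemoglobin libraries was chosen after seeing the data.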

Additional observations from a re-analysis of the deposited data

How the results depend on the processing

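The counts of 0 interferon-stimulated genes called higher and 0 called lower held with pseudocounts of 0.01 and 1, both filters, median-of-ratios scaling, no variance trend, an adjusted p of 0.05, the replicate block, and without both libraries with hemoglobin. The higher count was 5 and the lower 4 with no fold threshold, and the lower count was 1 with TPM scaling (ISG20), with respiratory chain scaling (GBP2) and with no mean FPKM minimum for a call (ISG20). With 1 library left out, 0 to 2 were called higher and 0 were called lower. The number past the adjusted p alone, 5 higher and 4 lower, became 1 higher with no filter, with median-of-ratios scaling and with the replicate block, 2 higher with TPM scaling and with no variance trend, and 0 higher with respiratory chain scaling and with an adjusted p of 0.05. The lower genes numbered 6 with each of these 3 scalings. It was 1 higher and 2 lower without both libraries with hemoglobin, and 0 to 5 higher and 4 lower with 1 library left out. The median log2 fold change of 0.18 became 0.14 with median-of-ratios scaling, 0.11 with TPM scaling and 0.050 with respiratory chain scaling, and ran from 0.12 to 0.21 with 1 library left out. Respiratory chain scaling moved the median of all rows to -0.09, against 0.04 without it.

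Over the whole table, 230 rows were called higher and 200 lower. These were 148 and 110 with a pseudocount of 1, 2396 and 1341 with no fold threshold, and 148 and 420 with respiratory chain scaling. Rows called lower were 323 with TPM scaling and 321 with no mean FPKM minimum, and the median-of-ratios split was 185 higher and 261 lower. With 1 library left out they ran from 213 to 271 higher and 140 to 232 lower. Of the genes on the 6 pathway lists, 2 were called higher and 0 lower, against 3 and 0 with a pseudocount of 0.01 (TLR4 added), 1 and 0 with a pseudocount of 1 and with TPM scaling, 1 and 1 with median-of-ratios and with respiratory chain scaling, 1 and 0 without both libraries with hemoglobin, 13 and 12 with no fold threshold, and 2 to 3 and 0 to 1 with 1 library left out. Beyond what the alternatives' own construction sets, the cause was not tested.

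Residuals of libraries with the same replicate number correlated at -0.20, 0.0039 and -0.13, so no signal shared by same-numbered libraries was seen. Within a group these residuals sum to 0, so the correlations are not free. They cannot show whether same-numbered libraries were handled together. With the replicate block, 234 rows were called higher and 199 lower, and the higher genes past the adjusted p alone numbered 1 (IFIT5).

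The depth of each library is unknown, which limits what the 14 genes with a mean below 1 FPKM can show.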

Other observations

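PSME2, a subunit of the proteasome activator that interferon gamma induces, was at 38.5, 32.6 and 32.6 FPKM in AAV-PDGF-D, against 32.3, 140 and 25.4 FPKM in AAV-GFP. AAV-GFP replicate 2 stood apart for PSME2, while its partner PSME1 was at 113, 110 and 107 FPKM in the AAV-GFP libraries. PSME2 was chosen after its values were seen.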
